A study of Mus musculus with 8 samples.

Results

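The miR-106b/miR-93/miR-25 cluster is a group of 3 microRNA (miRNA) hairpins that are transcribed together, from within the gene Mcm7. It was described here across 8 small RNA libraries of mouse embryonic stem cells forming embryoid bodies (EBs), the aggregates in which such cells leave pluripotency. Every row of the deposited table named mmu-miR-106b, mmu-miR-93 or mmu-miR-25 was taken, with either arm of the hairpin. This gave 6 mature miRNAs of 1099 listed, and all 6 passed the filter on low values used for testing. The cells were of the KH2 line with the genotype KH2-DGCR8, in which doxycycline (Dox) switches on DGCR8. This RNA-binding protein works with the nuclease DROSHA, and together, as the Microprocessor, they release hairpins from primary miRNA transcripts. The groups were EB day 0, day 1, day 2 and day 4, each without Dox and with it, and all groups shared the cell line and genotype. Each of the 8 conditions had 1 library. The sources used here do not say how long Dox was given, or whether the libraries came from separate cultures or from 1 clone. Transgene expression cannot be read from mature miRNAs. The comparison bears on how added DGCR8 alters the making of miRNAs.

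Both arms of a hairpin can be loaded into Argonaute, and the loaded arm pairs with target messages mainly through its seed, bases 2 to 8. Mcm7 encodes a subunit of the helicase that opens replication origins, so the cluster is carried by a gene of proliferating cells. miR-106b and miR-93 belong to the miR-17 seed family and miR-25 to the miR-92 family. Both families are known for restraining cell cycle inhibitors and pro-apoptotic genes, and the miR-17 family is abundant in embryonic stem cells. The same seeds are carried by the paralogous clusters miR-17 to miR-92a and miR-106a/miR-363.

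The hairpins are shown first, 5′ to 3′ in the order in which they are transcribed, because several results below concern the balance of their arms. Capitals mark the mature 5p arm and then the mature 3p arm. Sequences and positions are from RefSeq on GRCm38.p6 (mm10).
Mir106b: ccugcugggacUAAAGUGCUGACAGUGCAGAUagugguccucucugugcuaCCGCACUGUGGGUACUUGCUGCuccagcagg
Mir93: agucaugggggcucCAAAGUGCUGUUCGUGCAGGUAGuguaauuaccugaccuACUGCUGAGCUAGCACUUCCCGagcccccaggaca
Mir25: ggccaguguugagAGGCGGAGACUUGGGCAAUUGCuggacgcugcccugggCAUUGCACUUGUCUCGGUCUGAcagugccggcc
They lie on the minus strand at chr5:138165737-138165818, chr5:138165523-138165610 and chr5:138165321-138165404, within a span of 498 bases, with 126 and 118 bases between neighbours. In GENCODE M21 all 3 fall in intron 13 of the coding transcript of Mcm7 with 15 exons (intron at chr5:138165162-138165909). A short retained-intron transcript of Mcm7 has Mir93 and Mir25 within its exon 1.

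The mature arms are shown with their seed in capitals, to group them by what they could pair with.
miR-106b-5p: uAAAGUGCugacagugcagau
miR-93-5p: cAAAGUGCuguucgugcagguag
miR-25-3p: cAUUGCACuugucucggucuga
miR-106b-3p: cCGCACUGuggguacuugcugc
miR-93-3p: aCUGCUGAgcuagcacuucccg
miR-25-5p: aGGCGGAGacuugggcaauugc
miR-106b-5p and miR-93-5p share the seed AAAGUGC with 4 other listed miRNAs, miR-17-5p, miR-20a-5p, miR-20b-5p and miR-106a-5p. miR-25-3p shares AUUGCAC with 5 others, miR-92a-3p, miR-363-3p, miR-32-5p, miR-92b-3p and miR-367-3p. The seeds of the remaining arms occurred in no other listed miRNA with a RefSeq sequence (926 of the 1099 had one). From the 5′ end, miR-106b-5p differed from miR-93-5p at 5 of 21 bases and from miR-17-5p, miR-20a-5p and miR-106a-5p at 3 of 21. miR-25-3p differed from miR-92a-3p at 3 of 21. The sources used here do not say how reads that matched several miRNAs were assigned.

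The table's values were taken as RPM, that is miRNA reads scaled so that each library has nearly the same total (999965 to 1000047). The spacing of the low values implied 362483 to 541342 miRNA reads per library, with 630 to 751 miRNAs above 0. For 5 libraries a larger total within the range searched also matched, and the smallest was used, which gives the widest counting intervals. Totals above that range were not tried, so a single match in the other libraries holds within it only. The miR-290 cluster, which marks pluripotent mouse cells, held 40.2% to 45.8% of reads in the day 0 libraries, so the stem cell label was met by its defining miRNAs, and 16.1% without Dox and 22.7% with Dox at day 4. All 12 of its listed arms were above 0 in every library. The miR-302/miR-367 epiblast miRNAs summed to 0.0419% and 0.0329% at day 0 and to 3.58% and 0.237% at day 4, without and with Dox. The 6 listed fibroblast feeder markers (of 7 sought) ran from 1.33% to 3.96% of reads without Dox and from 1.92% to 5.75% with it. In both series they were lowest at day 0 and highest at day 4, and whether feeder cells were their source was not tested. The other marker lists stayed low, with neural miRNAs at 0.305% to 0.739%, endoderm at 0.028% to 0.0985%, and blood and muscle at no more than 0.0059% and 0.013%. The muscle markers were at 0 in 3 libraries. In these bulk libraries fewer cells of a type and less RNA per cell cannot be told apart.

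The cluster was an abundant part of the miRNA pool. Its 6 arms together held between 1.51% of reads (day 4 with Dox) and 2.49% (day 1 with Dox). miR-25-3p led, with a mean of 12391 RPM over the 8 libraries, rank 21 of 1099 miRNAs. miR-93-5p followed with 6136 RPM, rank 36, and miR-106b-3p with 2043 RPM, rank 68. miR-106b-5p had a mean of 614 RPM. The order miR-25-3p, miR-93-5p, miR-106b-3p, miR-106b-5p held in 8 of 8 libraries, and the ranges of these 4 did not overlap. The lesser arms miR-25-5p (52 to 131 RPM) and miR-93-3p (18 to 116 RPM) had overlapping ranges, with miR-25-5p the higher in 8 of 8 libraries. The 3 hairpins, carried by 1 intron, thus differed severalfold in the level of their more abundant arm. Small RNA cloning is known to capture different sequences unequally, and its part in these level differences was not tested.

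Values by library were as follows. miR-25-3p measured 12105, 12761, 9307 and 11830 RPM at days 0, 1, 2 and 4 without Dox, and 14953, 15688, 13051 and 9434 RPM with Dox. It was the higher with Dox on days 0, 1 and 2 and the lower on day 4, and the treatments overlapped. miR-93-5p stood at 6268, 7543, 7620 and 5344 RPM without Dox and at 6057, 6342, 6519 and 3392 RPM with it. It was lowest at day 4 in both series and lower with Dox on each of the 4 days.

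miR-106b-3p measured 1517, 2559, 2612 and 2229 RPM without Dox and 1602, 2289, 1821 and 1712 RPM with it. Both day 0 values lay below all later ones. miR-106b-5p stood at 465, 531, 1200 and 601 RPM without Dox and at 517, 404, 691 and 499 RPM with it, and peaked at day 2 in both series.

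The lesser arms rested on few reads. miR-93-3p had 32, 116, 74 and 19 RPM without Dox and 25, 54, 60 and 18 RPM with it, or 7 to 52 implied reads. It was high on days 1 and 2 and low on days 0 and 4 in both series. miR-25-5p stood at 95, 125, 83 and 58 RPM without Dox and at 52, 131, 70 and 67 RPM with it (19 to 68 implied reads), highest at day 1 in both.

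**Figure D1:**
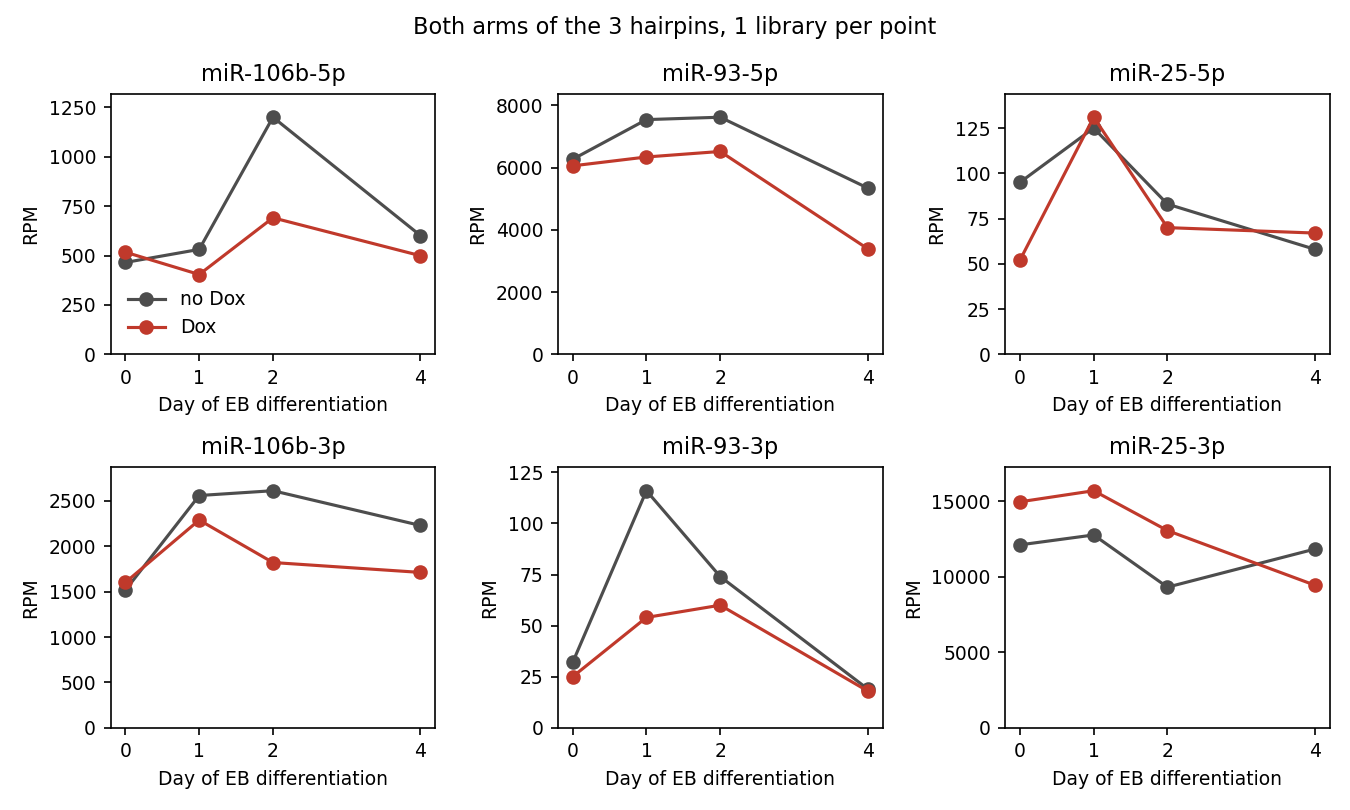
Level of each arm in RPM (vertical axis, from 0, a different scale in each panel) against day of EB differentiation, with grey points for libraries without Dox and red points for libraries with Dox, 1 library per point. miR-93-5p lay lower with Dox on each day, whereas miR-25-3p lay higher with Dox on days 0, 1 and 2 and lower on day 4.

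The miR-106b hairpin differed from its neighbours in the use of its arms. In miR-93 the 5p arm held between 98.5% and 99.6% of the hairpin's reads, and in miR-25 the 3p arm held between 99.0% and 99.7%. In miR-106b both arms were abundant and the 3p arm prevailed, with 68.5% to 85.0% of reads, although it is the 5p arm that carries the miR-17 family seed. The share of miR-106b-5p was 23.5% (95% exact binomial interval 20.6 to 26.5), 17.2% (15.2 to 19.3), 31.5% (29.2 to 33.8) and 21.2% (18.8 to 23.9) at days 0, 1, 2 and 4 without Dox. With Dox it was 24.4% (21.4 to 27.6), 15% (13.2 to 17), 27.5% (25 to 30.2) and 22.6% (20.2 to 25). The intervals cover counting error only. Both libraries of a day lay within 3.97 percentage points of each other, while the day means ran from 16.1% at day 1 to 29.5% at day 2. Whether libraries of the same day were more alike than others was tested over the 105 ways to pair the 8 libraries. This exact permutation test gave p = 0.00952, the smallest it can give (0.0286 adjusted over the 3 hairpins).

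The same exact permutation test gave p = 0.0857 for miR-93 (0.129 adjusted), whose 3p share averaged 0.452%, 1.18%, 0.931% and 0.451% at days 0, 1, 2 and 4. For miR-25 the exact permutation p was 0.486, with 5p shares of 0.560% to 0.898% by day. This test was chosen after the values were seen. With any 1 day left out, the miR-106b test stood at the smallest p that 6 libraries allow, 0.0667, and without day 1 or day 2 the range of the day means was 7.60 or 7.84 points in place of 13.4.

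**Figure D2:**
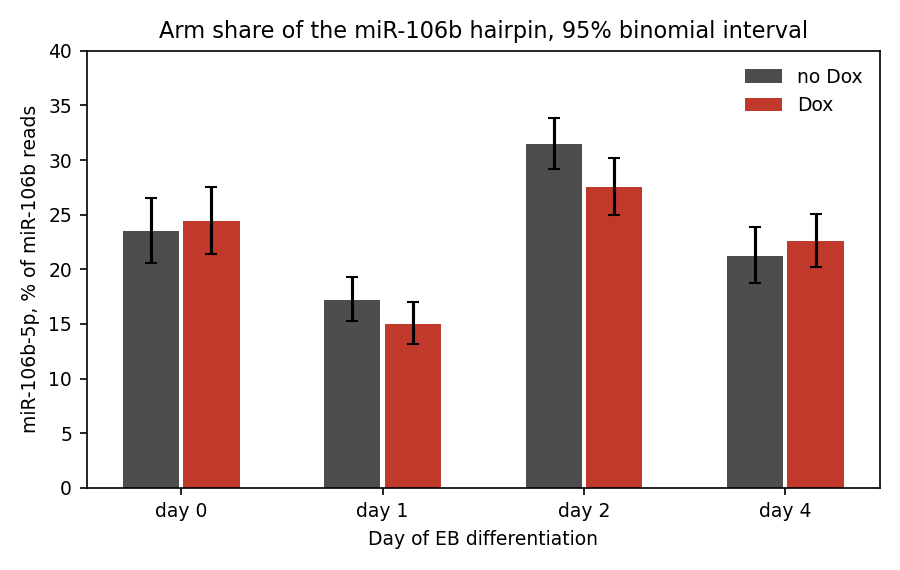
Share of the miR-106b hairpin's reads on the 5p arm, in percent (vertical axis, from 0), by day of EB differentiation, with grey columns without Dox, red columns with Dox and thin lines for 95% exact binomial intervals. Both libraries of a day stood close together, lowest at day 1 (17.2% and 15%) and highest at day 2 (31.5% and 27.5%).

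For each hairpin the mean difference in arm shares with Dox was smaller than its SD over the days. Within a day the largest difference was 0.429 points for miR-25, above the 0.338-point range of its day means. For miR-93 and miR-106b it was 0.664 and 3.97 points, below ranges of 0.727 and 13.4. The main-arm share with Dox minus without averaged 0.986 percentage points (SD 2.53, n = 4 days) for miR-106b-3p, 0.157 (SD 0.359) for miR-93-5p and 0.175 (SD 0.287) for miR-25-3p. Exact two-sided sign-flip permutation tests over the 4 day pairs gave p = 0.625, 0.625 and 0.375. The smallest p that 4 pairs allow is 0.13, so this design could not pass 0.05.

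Dox was next compared with no Dox across the 4 days, with day as a factor. Of the 6 arms 0 passed the threshold (limma adjusted p under 0.05 over 839 miRNAs), against 1.91% of all miRNAs tested (1.31% higher and 0.596% lower). Of the 6, 0 were also under 0.05 before adjustment, against 88 of all 839. A limma-voom fit to implied reads also had 0 of the 6 passing, against 2.38% of all miRNAs. The lowest unadjusted limma p was 0.0970, for miR-93-5p. The log2 change with Dox was -0.30 (SE 0.18, adjusted p = 0.612) for miR-93-5p, -0.25 (SE 0.19, 0.743) for miR-106b-3p, -0.33 (SE 0.22, 0.670) for miR-106b-5p and 0.19 (SE 0.17, 0.780) for miR-25-3p. For the lesser arms it was -0.45 (SE 0.38) for miR-93-3p and -0.21 (SE 0.32) for miR-25-5p. The median over the 6 was -0.27, with 5 below 0, beside 0.03 over all 839. Among the 12 arms of miR-17 to miR-92a the median was -0.31, with 10 below 0. Among the 10 arms of miR-106a/miR-363 it was -0.04, with 5 below 0.

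Within single days the ratio of the libraries with and without Dox can be set against counting error only. For miR-93-5p it was 0.966 (95% interval 0.913 to 1.02), 0.841 (0.801 to 0.882), 0.856 (0.814 to 0.899) and 0.635 (0.595 to 0.677) at days 0, 1, 2 and 4. Both arms of miR-106b were near 1 at day 0, with intervals that included 1, and below 1 on the 3 later days, lowest at day 2, at 0.697 (0.637 to 0.763) for the 3p arm and 0.576 (0.499 to 0.663) for the 5p arm. For miR-25-3p it was 1.24 (1.19 to 1.28), 1.23 (1.19 to 1.27), 1.40 (1.35 to 1.46) and 0.797 (0.766 to 0.831). At day 0 only the ratio of miR-25-3p among these 4 arms differed from 1 beyond counting error, and on each later day those of all 4 did. With 1 library per condition the spread between cultures is not known.

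**Figure D3:**
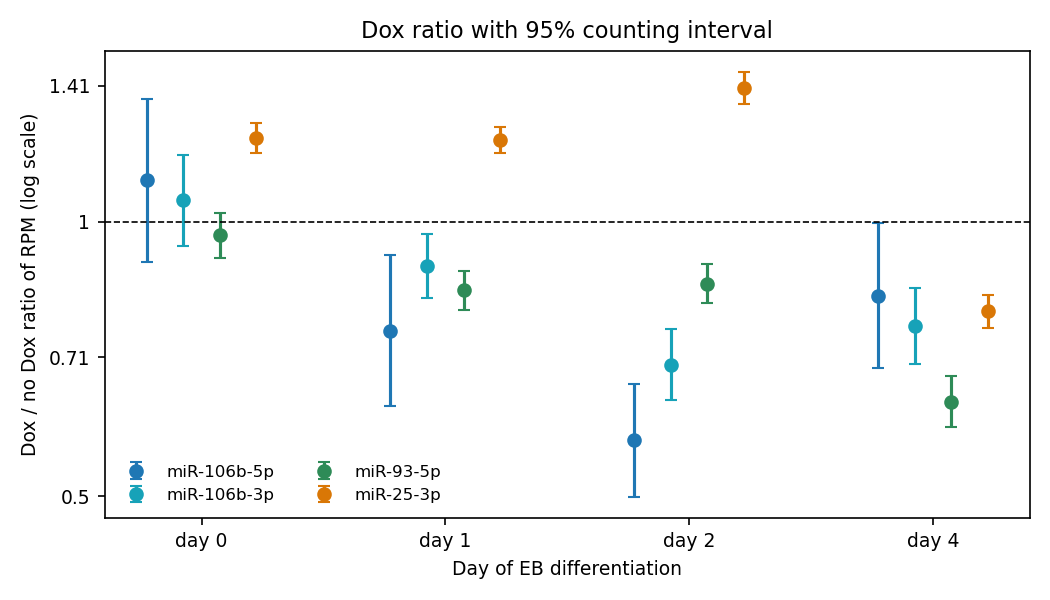
Ratio of RPM with Dox to RPM without Dox (vertical axis, log scale) for the 4 more abundant arms by day, with 95% exact counting intervals as bars and a dashed line at 1. miR-25-3p lay above 1 at days 0, 1 and 2, where miR-93-5p lay at 0.966, 0.841 and 0.856, and all 4 arms lay below 1 at day 4.

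A further term, Dox times day number, tested for a trend of the Dox ratio over the days. Of the 6 arms 0 passed in limma, against 0.954% of all miRNAs (0.238% higher and 0.715% lower). Before adjustment 0 of the 6 were under 0.05, against 95 of all 839. The Dox log2 ratio moved by -0.16 per day for miR-25-3p (SE 0.09, adjusted p = 0.501), -0.14 for miR-93-5p (SE 0.10, adjusted p = 0.640) and -0.11 for miR-106b-3p (SE 0.12, adjusted p = 0.754). The value of miR-25-3p rested on day 4: without that pair it was 0.09 (SE 0.16).

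The balance among the 3 hairpins had 1 direction with Dox on every day, towards miR-25, in a design too small to test it at 0.05. The ratio of miR-25-3p to miR-93-5p was 1.93, 1.69, 1.22 and 2.21 without Dox at days 0, 1, 2 and 4, and 2.47, 2.47, 2.00 and 2.78 with it. It was higher with Dox on 4 of 4 days, by 1.28-fold (95% counting interval 1.19 to 1.37), 1.46-fold (1.38 to 1.55), 1.64-fold (1.54 to 1.75) and 1.26-fold (1.16 to 1.36). On the log2 scale the mean difference was 0.49 (SD 0.18, n = 4), and the exact sign-flip permutation test gave p = 0.13, the smallest that 4 pairs allow (0.188 adjusted over 3 pairs of arms). A ratio within a library does not depend on how libraries were scaled.

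The ratio of miR-25-3p to miR-106b-3p was 7.98, 4.99, 3.56 and 5.31 without Dox and 9.33, 6.85, 7.17 and 5.51 with it. It too was higher with Dox on 4 of 4 days, by a mean log2 difference of 0.44 (SD 0.42, exact permutation p = 0.13, 0.188 adjusted). The difference was widest at day 2, at 2.01-fold (1.82 to 2.22), and at day 4 its counting interval included 1 (0.935 to 1.15). The ratio of miR-93-5p to miR-106b-3p had no common direction, with a mean log2 difference of -0.05 (SD 0.24, exact permutation p = 0.750), higher with Dox on 1 of 4 days. None of the 3 comparisons passed a threshold of 0.05.

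**Figure D4:**
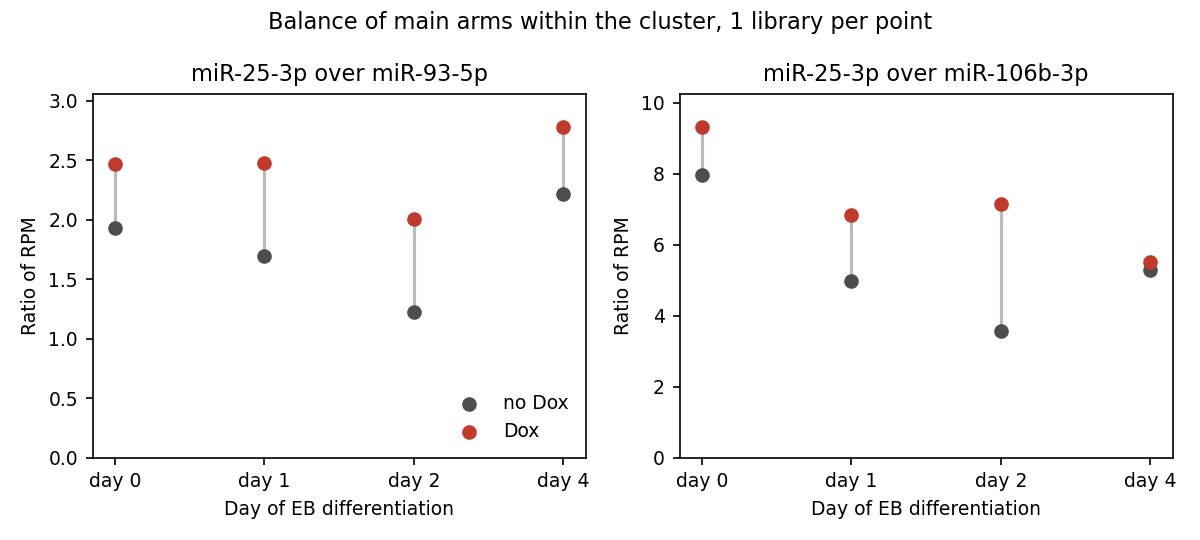
Ratio of miR-25-3p to miR-93-5p (left) and to miR-106b-3p (right) in RPM, vertical axes from 0, by day of EB differentiation, with grey points without Dox, red points with Dox and a line joining both libraries of a day. The red point is the higher in each of the 4 pairs of both panels, with the smallest gap at day 4 on the right (5.31 and 5.51).

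The days were compared next. The highest value over the 8 libraries was 6.44 times the lowest for miR-93-3p, 2.97 times for miR-106b-5p and 1.69 times for miR-25-3p. Against day 0, with Dox as a term, 0 of 6 passed in limma at day 1 (8.1% of all miRNAs tested were called), 1 at day 2 (17.3%, or 15.3% higher) and 0 at day 4 (25.7%). Before adjustment 2 of 6 were under 0.05 at day 1, 2 at day 2 and 1 at day 4. The same held for 168, 232 and 278 of all 839 miRNAs. The arm called was miR-106b-5p, higher at day 2 with a log2 change of 0.89 (SE 0.31, adjusted p = 0.0338). The rise was 2.58-fold (2.18 to 3.06) without Dox and 1.34-fold (1.12 to 1.61) with it. It was not called without the robust option of limma (adjusted p = 0.0837), nor when libraries were scaled by the median of ratios (log2 change 0.42, adjusted p = 0.452) or to all reads but those of the miR-290 cluster (0.73, 0.0990). With the median of ratios miR-25-3p was called lower at day 2 instead, by -0.76 (adjusted p = 0.0186). miR-106b-3p, from the same hairpin, had log2 changes of 0.63, 0.48 and 0.33 at days 1, 2 and 4 (adjusted p = 0.149, 0.240 and 0.457). miR-93-3p was at 1.45 (SE 0.54, adjusted p = 0.0717) at day 1 and 1.21 at day 2.

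From day 0 to day 4 the changes of miR-93-5p and miR-25-3p lay below the median change of all miRNAs tested. The log2 change against day 0 in limma was -0.53 for miR-93-5p (SE 0.25, adjusted p = 0.111) and -0.35 for miR-25-3p (SE 0.24, adjusted p = 0.318). The median log2 change of all 839 miRNAs was itself 0.56. The RPM scale sums to a fixed total, and the miR-290 cluster gave up a large share of it over these days, as given above. With median-of-ratios scaling, which brought the median of all miRNAs to 0.01, both fell at day 4: miR-93-5p by 1.13 (adjusted p = 1.62e-04) and miR-25-3p by 0.95 (adjusted p = 0.00107). With that cluster left out of the scaling total the changes were -1.04 (adjusted p = 4.70e-04) and -0.85 (adjusted p = 0.00344). miR-106b-3p and miR-106b-5p, at 0.33 and 0.16 on the RPM scale, turned to -0.27 and -0.44 with the median of ratios, and neither was called.

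The day 4 levels differed between treatments by more than counting error. miR-25-3p was at 0.631 of its day 0 level with Dox (95% counting interval 0.607 to 0.656) and at 0.977 without it (0.938 to 1.02). miR-93-5p was at 0.560 (0.526 to 0.596) with Dox and at 0.853 (0.803 to 0.905) without it. Neither difference has a test beyond the Dox by day term above, which did not pass. At day 4 the libraries also differed in the miR-302/miR-367 miRNAs (3.58% without Dox and 0.237% with it), the miR-290 cluster (16.1% and 22.7%) and the feeder markers (3.96% and 5.75%), and the part of these differences was not tested.

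The paralogous clusters were followed in the same libraries, because they supply the same seeds. The sequences of their main guide arms show how close they are, with the seed in capitals.
miR-17-5p: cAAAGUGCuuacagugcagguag
miR-20a-5p: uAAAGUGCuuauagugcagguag
miR-106a-5p: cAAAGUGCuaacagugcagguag
miR-20b-5p: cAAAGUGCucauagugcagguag
miR-92a-3p: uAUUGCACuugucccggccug
miR-363-3p: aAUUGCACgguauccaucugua
The 12 listed arms of miR-17 to miR-92a, placed by RefSeq on chromosome 14, summed to between 41091 and 57687 RPM without Dox and between 39639 and 49688 RPM with it. Of these, 0 of 12 passed in limma at any day against day 0. The 10 listed arms of miR-106a/miR-363, on the X chromosome, summed to 9897, 13728, 28843 and 34607 RPM at days 0, 1, 2 and 4 without Dox and to 13114, 14204, 27129 and 21803 RPM with it. Of these, 5, 7 and 6 of 10 were higher at days 1, 2 and 4 than at day 0, against 7.03%, 15.3% and 21.9% of all miRNAs, and 0 were lower, against 1.07%, 2.03% and 3.81%. Some arms called on each of these days had few implied reads at day 0. These were, without and with Dox, 2 and 2 for miR-19b-2-5p, 8 and 2 for miR-18b-3p and 11 and 23 for miR-363-5p. The counts are on the RPM scale, where the median log2 change of all 839 miRNAs was 0.37, 0.48 and 0.56. With Dox, 0 arms passed in either paralogous cluster. miR-19b-3p and miR-92a-3p can come from both, and were counted with miR-17 to miR-92a.

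Single paralogs differed in the size of the contrast. Of the seed-sharing arms shown above, those with the largest day 4 changes are given first. miR-363-3p, a counterpart of miR-25-3p, measured 1418, 2972, 6448 and 10977 RPM at days 0, 1, 2 and 4 without Dox and 2394, 3283, 7238 and 6909 RPM with it. Its log2 change from day 0 to day 4 was 2.24 (SE 0.26, adjusted p = 1.03e-15 in limma). miR-20b-5p, a counterpart of miR-93-5p, stood at 1600, 2352, 6982 and 5700 RPM without Dox and at 2676, 2331, 5988 and 4614 RPM with it, with a log2 change of 1.31 at day 4 (SE 0.26, adjusted p = 8.86e-06). The other seed-sharing arms shown were not called in limma at day 4. Their log2 changes were 0.45 (adjusted p = 0.193) for miR-106a-5p and 0.29 (0.45) for miR-17-5p. For miR-92a-3p and miR-20a-5p they were 0.19 (0.616) and -0.08 (0.874). The leading cluster arms with the same seeds had changes of -0.35 and -0.53 on that scale, as given above. With 1 library per condition, these SEs and p-values rest on a spread that limma shared across miRNAs. The own residual SD was 0.41 for miR-363-3p and 0.34 for miR-20b-5p, against the 0.26 that limma used for each. The small p-values follow in part from that shared spread.

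The summed level of the Mcm7 cluster stood at 20482, 23635, 20896 and 20081 RPM without Dox and at 23206, 24908, 22212 and 15122 RPM with it. Its ratio to miR-106a/miR-363 was 2.07, 1.72, 0.724 and 0.580 at days 0, 1, 2 and 4 without Dox and 1.77, 1.75, 0.819 and 0.694 with Dox. The 4 libraries of days 0 and 1 lay above 1 and the 4 of days 2 and 4 below it. The mean ratio was 1.82 in the former and 0.699 in the latter, a difference of -1.38 on the log2 scale, and the groups did not overlap. With whole days as the unit, 2 days against 2, the exact permutation test over 6 splits gave p = 0.333, the smallest it can give. A permutation of the 8 libraries over 70 splits gave p = 0.0286 (0.0571 adjusted over both paralogous clusters), but it takes the libraries of a day as independent, which makes p too small where they are alike. The grouping of days was chosen after the values were seen. Where the ratio stands to 1 depends on which arms are counted. Over miR-17 seed arms only it was below 1 in every library. It was 0.913, 0.944, 0.491 and 0.363 at days 0, 1, 2 and 4 without Dox and 0.687, 0.810, 0.448 and 0.337 with it. The day difference was then -1.04 on the log2 scale, again without overlap.

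Against miR-17 to miR-92a the mean ratio was 0.522 at days 0 and 1 and 0.395 at days 2 and 4 (log2 change -0.40), and the groups overlapped (exact permutation p = 0.333 over whole days and 0.0571 over libraries). Leaving out the shared miR-19b and miR-92a arms made the change -0.53 (exact permutation p = 0.333 and 0.0286). Over miR-17 seed arms only it was -0.48, with overlap (exact permutation p = 0.333 and 0.0857). With Dox the ratio to miR-17 to miR-92a differed by 0.18 on the log2 scale (SD 0.21, n = 4 days, exact sign-flip permutation p = 0.250) and the ratio to miR-106a/miR-363 by 0.06 (SD 0.21, p = 0.625). Counted over miR-17 seed arms only, the means were -0.09 and -0.22. The former came from day 0 (-0.45), with 0.02, 0.04 and 0.04 at days 1, 2 and 4, and the latter was negative on 4 of 4 days.

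**Figure D5:**
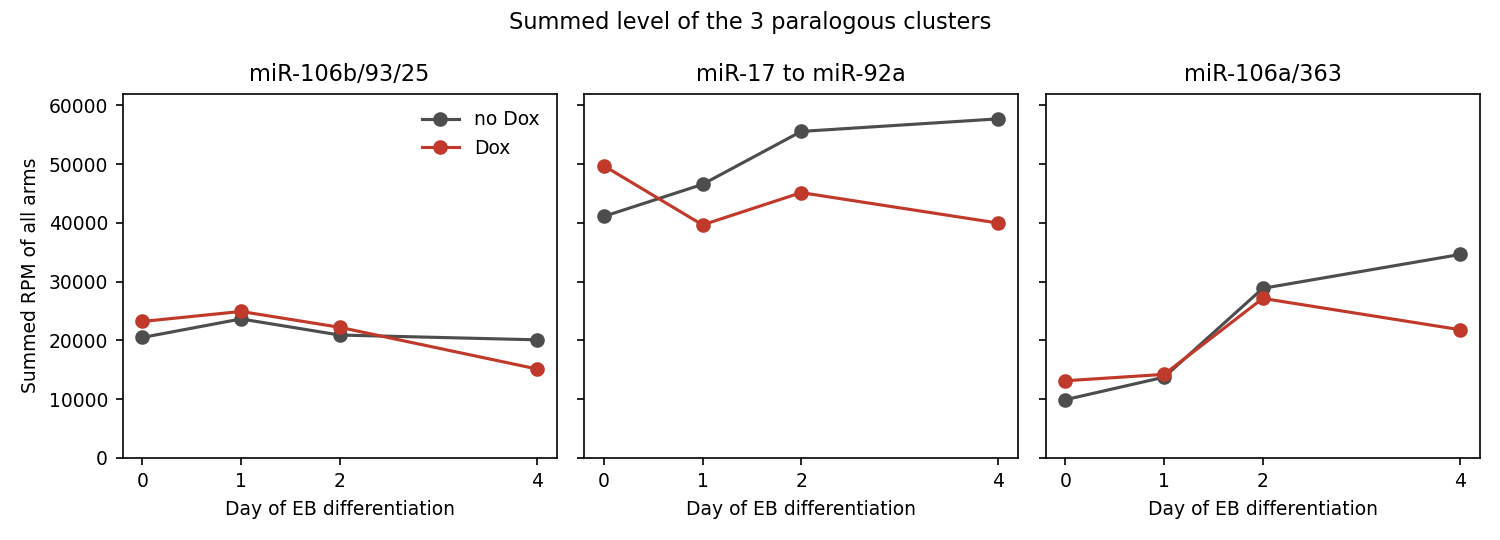
Summed RPM of the miR-106b/miR-93/miR-25, miR-17 to miR-92a and miR-106a/miR-363 clusters by day of EB differentiation, in grey without Dox and in red with Dox, 1 library per point. miR-106a/miR-363 stood at 9897 and 13114 RPM at day 0 and at 34607 and 21803 RPM at day 4, while miR-106b/miR-93/miR-25 stayed between 15122 and 24908 RPM.

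The cluster's part of each seed family was lower on average at days 2 and 4 than at days 0 and 1, a difference that 2 days against 2 cannot test at 0.05. miR-93-5p and miR-106b-5p together made up 22.3%, 23.1%, 16.6% and 12.6% of the RPM of the 6 miR-17 seed miRNAs at days 0, 1, 2 and 4 without Dox, and 17.5%, 22.3%, 16.2% and 12.5% with Dox. The mean was 21.3% (SD 2.56, n = 4) at days 0 and 1 and 14.5% (SD 2.22, n = 4) at days 2 and 4. The groups did not overlap, and the exact permutation p was 0.333 over whole days, the smallest possible, and 0.0286 over libraries (0.0571 adjusted over both families). The share was lower with Dox on 4 of 4 days, by 1.52 percentage points on average (SD 2.22, exact sign-flip permutation p = 0.13, 0.250 adjusted).

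miR-25-3p made up 38.5%, 31.7%, 24.4% and 23.6% of the RPM of the 6 AUUGCAC miRNAs without Dox and 36.3%, 39.7%, 34.7% and 25.7% with it. The mean was 36.6% (SD 3.56, n = 4) at days 0 and 1 and 27.1% (SD 5.17, n = 4) at days 2 and 4, with overlap (exact permutation p = 0.333 over whole days and 0.0571 over libraries). With Dox the share was higher on 3 of 4 days, by 4.60 percentage points on average (SD 5.72, exact sign-flip permutation p = 0.375). miR-92a-3p was the larger source of this seed in 8 of 8 libraries, at 15398 to 25204 RPM. Because these shares add values of different sequences, they depend on how evenly the sequences were cloned, which was not tested.

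The miRNAs whose log2 values followed each leading arm most closely over the 8 libraries were sought among 270 abundant miRNAs outside the cluster. For miR-106b-3p they were miR-15b-3p (Pearson r = 0.90), let-7e-5p (0.89) and miR-130b-5p (0.88). For miR-93-5p they were miR-497a-5p (0.88), miR-320-3p (0.86) and miR-6539 (0.84). For miR-25-3p they were miR-194-5p (0.78), miR-191-5p (0.77) and miR-192-5p (0.72). Within the cluster the highest value was between both arms of miR-93, at 0.79, and miR-25-3p was at 0.34 with miR-93-5p, -0.14 with miR-106b-3p and -0.59 with miR-106b-5p. The points share a fixed total per library and the same 4 days, and the values are descriptions.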

How the data were processed

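Total RNA was taken with TRIzol and small RNA libraries were made with the NEBNext kit, per the labels' protocols. Bowtie and mm10 are named in the submitters' processing notes, and the sources used here give no versions, adapter removal or rule for reads matching several miRNAs. The authors deposited 1 table of whole-number scores per mature miRNA, which sum to 999965 to 1000047 per library and are read here as rounded RPM. A row with a name and no value was left out. Implied whole reads were recovered as the smallest total, within the range searched, for which all values match within 0.5 RPM. With these totals 3 reads equal 5.54 to 8.28 RPM.

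log2(RPM + 1) was fitted with limma 3.58.1 (R 4.3.3, trend and robust options) over the 839 miRNAs with at least 1 RPM in at least 2 libraries, with Benjamini-Hochberg adjustment over all 839. The terms were day as a factor and Dox, with Dox times day added for the trend. With 1 library per condition the residual spread comes from the Dox by day pattern and is shared across miRNAs, and p-values measure the spread between these libraries only. Without the robust option 0 of the 839 miRNAs passed for Dox, where 16 did with it. At days 1, 2 and 4 against day 0, 13, 72 and 157 passed without it and 68, 145 and 216 with it. The arms of the paralogous clusters were not recounted without that option. Permutation tests were exact and two-sided. Ratio intervals are exact conditional binomial intervals at 95% and cover counting error only.

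All 6 arms of miR-106b, miR-93 and miR-25 are described, with the seed-sharing paralogs and, for each leading arm, the 3 miRNAs of mean at least 100 RPM with the highest Pearson r. The members and lists were chosen with earlier results of these data known. Chosen after values were seen in this work were the arm test by day (3 hairpins), the grouping of days (2 cluster ratios, 2 seed families), the Dox test of the 2 seed family shares, the choice of leading arm by its mean, and the move of miR-19b-2-5p and miR-92a-2-5p to the miR-106a/miR-363 list by their RefSeq chromosome. Of these tests only that for the arms of miR-106b passed 0.05 after adjustment within its family, and no adjustment was made across families. The fits were tested on simulated data, in which abundant miRNAs that changed shifted the RPM of others. The simulation was therefore limited to changed miRNAs of moderate level, and it held no day effect. The leading arms lie above that level, so it does not cover changes in them. Alternatives were pseudocounts, filters, limma-voom, other scalings and leaving out each day. Permuting whole days was added last, because libraries of the same day are not independent in a comparison of days.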

Additional observations from a re-analysis of the deposited data

Results flagged for a closer look

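The Dox ratio of miR-25-3p went in opposite directions on different days. It was 1.235 at day 0, 1.229 at day 1 and 1.402 at day 2, and 0.7975 at day 4. Each point is 1 library over 1 library, and the difference between single days was not tested. The trend of the ratio with day did not pass in limma (adjusted p = 0.501).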

How the results depend on the processing

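Over 495 alternatives, 438 were classed as the same, by rules that differed with the kind of result. For single arms in the fits the rule was direction and side of the threshold. For counts of arms called it was an equal or similar number, whichever arms were called. At day 2 with the median of ratios the count thus stayed the same while the arm called changed. For Dox differences in shares and ratios the rule was direction only. For day changes without Dox alone it was a distance under the SE. Scaling mattered most for the days. The number of arms called at day 4 was 2 in place of 0 with the median of ratios and 2 when scaled outside the miR-290 cluster. Of all 839 miRNAs, 19.2% and 19.5% were called at day 4 in these settings. At day 2 it was 0 in place of 1 with the latter scaling (13.7% of all miRNAs) and 0 without the robust option (8.58%). At day 1 it was 1 with a filter at a mean of 10 RPM (16% of the 499 miRNAs then tested). With the median of ratios, log2 changes turned to -0.30 (miR-25-3p) and -0.21 (miR-93-5p) at day 1, to -0.36 (miR-25-5p) and -0.28 (miR-93-5p) at day 2, and to -0.27 (miR-106b-3p) and -0.44 (miR-106b-5p) at day 4. Scaled outside the miR-290 cluster, miR-25-5p was -0.043 at day 2, and miR-106b-3p and miR-106b-5p were -0.18 and -0.34 at day 4. Over miR-17 seed arms only, the Dox change was -0.090 (from day 0 alone) in the ratio to miR-17 to miR-92a and -0.22 in that to miR-106a/miR-363. Without miR-19b and miR-92a the day change of the former was -0.53, and over miR-17 seed arms only it was -0.48. The cause was not tested. With whole days permuted, the day difference in the ratio to miR-106a/miR-363 (-1.38) and in the miR-17 seed share (-6.86 points) had p = 0.333 by exact permutation, since 2 days against 2 allow no smaller p.

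Leaving out 1 day gave 0 to 1 arms called at day 1 (5.75% to 12.4% of all miRNAs) and 1 to 2 at day 2 (15.3% to 22.6%). The Dox change of miR-25-5p ran from -0.34 to 0.0098 (without day 0). The Dox trend ran from -0.24 to 0.091 (without day 4) for miR-25-3p and from -0.47 to 0.074 (without day 0) for miR-106b-5p. Dox differences ran from -0.0075 (without day 2) to 1.75 points in the miR-106b-3p share, from -0.012 (without day 1) to 0.270 for miR-93-5p and from 0.091 to 0.305 for miR-25-3p. The log2 Dox difference ran from 0.41 to 0.54 for miR-25-3p over miR-93-5p, 0.25 to 0.56 for miR-25-3p over miR-106b-3p and -0.16 to 0.026 (without day 4) for miR-93-5p over miR-106b-3p. The ratio to miR-17 to miR-92a ran from 0.11 to 0.27 for Dox and -0.52 to -0.28 for days, and that to miR-106a/miR-363 from -0.0076 (without day 4) to 0.15 and from -1.52 to -1.24. The share of the miR-17 seed ran from -1.97 to -0.42 points for Dox and -8.77 to -4.94 for days, and that of the miR-25 seed from 2.67 to 6.87 and from -11.9 to -6.99. The range of day means in the miR-106b-5p share ran from 7.60 to 13.4 points. With 6 libraries these permutation tests cannot go under 0.0667, so lost calls there follow from fewer samples. The arms miR-93-3p and miR-25-5p, at 7 to 68 reads, are limited by depth.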
